A study of Mus musculus with 20 samples.

Results

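The genes that encode the subunits of the IL-12 cytokine family, *Il12b*, *Il12a*, *Il23a*, *Il27* and *Ebi3*, were followed in mouse BMDMs, macrophages grown from bone marrow, after exposure to lipid A. They were chosen by name, and all 5 were among the 24888 genes of the table of nascent RNA levels. Nascent transcripts are RNA still attached to chromatin, and were purified with it before sequencing. The BMDMs came from male mice, either WT or *Rel*-/-, lacking *Rel*, the gene of the NF-κB subunit c-Rel, with C57BL/6 as the strain of both. They were grown for 6 days in medium with CMG and then left unstimulated (0 h) or given lipid A, the membrane anchor of lipopolysaccharide that activates TLR4, for 0.5, 1, 2 or 6 h. There were 2 replicates per genotype and time point, 20 libraries in all. The age of the mice is given as 8 to 10 weeks in the methods, and as both 8 to 10 and 10 to 12 weeks in separate entries of the study's reporting form, and the marrow of 2 to 4 mice was pooled for an experiment. The replicates are described as biological, but the labels do not tie a library to mice, and p-values measure the spread between replicates of these pools.

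IL-12 family cytokines are secreted heterodimers of a helical subunit and a subunit that resembles a soluble cytokine receptor. The receptor-like p40 chain, encoded by *Il12b*, pairs with p35 (*Il12a*) to form IL-12 and with p19 (*Il23a*) to form IL-23, whereas the receptor-like EBI3 chain pairs with p28 (*Il27*) to form IL-27 and with p35 to form IL-35. Activated macrophages and dendritic cells are known sources of these cytokines, through which they direct T cells and NK cells: IL-12 promotes interferon-γ production, IL-23 sustains cells that make IL-17, and IL-27 can both promote and restrain T cell responses.

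Levels are RPKM, the reads over a whole gene scaled by its length in kilobases and by the depth of the library, so they can be compared between genes. The reads behind each value were recovered from the table, and the sequencing depth of a WT library was 21094000 to 37398000 reads and that of a library labelled *Rel*-/- was 27478000 to 45439000 reads. A value of 3 reads or fewer was treated as the floor of detection, and where every library of a group was at the floor, the fold is written as "at least", a bound that covers counting error only. *Il12b*, *Il27* and *Ebi3* were among the 2980 expressed genes, those with a mean above 3 RPKM in WT at any time point, and *Il12a* and *Il23a* were not. A test of *Il12b*, *Il27* or *Ebi3* was therefore adjusted over the expressed genes, and a test of *Il12a* or *Il23a* over all 24888 genes. Both are limma fits on log2(RPKM + 0.1) with a Benjamini-Hochberg threshold of 0.05, and this scale understates the change of a gene whose level is near or below 0.1 RPKM. It also narrows the spread between replicates at such levels, which lowers the standard error that all groups of a gene share. With 2 libraries per group, the smallest two-sided p of an exact permutation test is 0.333, and none was used.

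Mean nascent RNA over the whole *Rel* gene was 2.04, 13.8, 14.1, 10.9 and 5.64 RPKM at 0, 0.5, 1, 2 and 6 h for WT, whereas it was 2.40, 12.7, 15.9, 9.60 and 4.57 RPKM for the libraries labelled *Rel*-/-. The genotypes were not separated by these reads. Which part of the gene was deleted is not given in the sources used here, and the genotype of each library rests on its label. The macrophage label was compared with marker genes of 9 cell types. All 8 macrophage genes passed 1 RPKM in some library, and their summed level was 40.8 to 174 RPKM in WT and 69.7 to 121 RPKM in libraries labelled *Rel*-/-, with the M-CSF receptor gene *Csf1r* the most abundant in the mean over all 20 libraries. Its median of 7.36 RPKM was below that of *Cd68* (12.6 RPKM), and its group mean was the highest of the 8 genes only at 0.5 h in the libraries labelled *Rel*-/-. None of 8 dendritic cell genes passed 1 RPKM, and their sum was 0.261 to 0.716 RPKM in WT and 0.225 to 1.09 RPKM in libraries labelled *Rel*-/-, with *Itgax* the most abundant in the mean over all 20 libraries (up to 0.413 RPKM) and *Clec9a* reaching the highest single value (0.508 RPKM) and the higher mean at 6 h. *Itgax* and *Siglech* had lower means under the *Rel*-/- label than in WT at every time point. *Zbtb46* and *Clec9a* had higher ones, and the other genes of this list went both ways. Of 6 T cell genes only *Lck* passed 1 RPKM (up to 1.11 RPKM), and 3 were at the floor in every library. No gene on the lists for B cells, NK cells, neutrophils, mast cells or basophils, erythroid cells and fibroblasts passed 1 RPKM. In these bulk samples fewer cells that transcribe a gene and less nascent RNA per cell cannot be told apart.

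All 5 subunit genes were higher after lipid A at 1 or more time points in WT, and their peaks differed in level and in time. In WT the highest mean was that of *Il27*, with 91.4 ± 17.1 RPKM at 2 h (SD, n = 2, as for the other means). *Il12b* reached 22.2 ± 7.51 RPKM at 1 h and *Ebi3* 17.9 ± 7.71 RPKM at 2 h, and the libraries of these neighbours in the order overlapped. *Il23a* peaked earliest, at 1.00 ± 0.176 RPKM at 0.5 h, and *Il12a* had the lowest peak, 0.195 ± 0.0215 RPKM at 2 h. Among the libraries labelled *Rel*-/- the order was *Il27* (56.6 ± 6.27 RPKM at 6 h), *Ebi3* (8.67 ± 3.01 RPKM at 6 h), *Il12b* (1.03 ± 0.430 RPKM at 1 h), *Il23a* (0.127 ± 0.0437 RPKM at 0.5 h) and *Il12a* (0.0388 ± 0.0120 RPKM at 2 h), and no neighbours in this order overlapped. *Il27* and *Ebi3*, the subunits of IL-27, thus had their highest means at 2 h in WT and at 6 h in the libraries labelled *Rel*-/-.

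**Figure D1:**
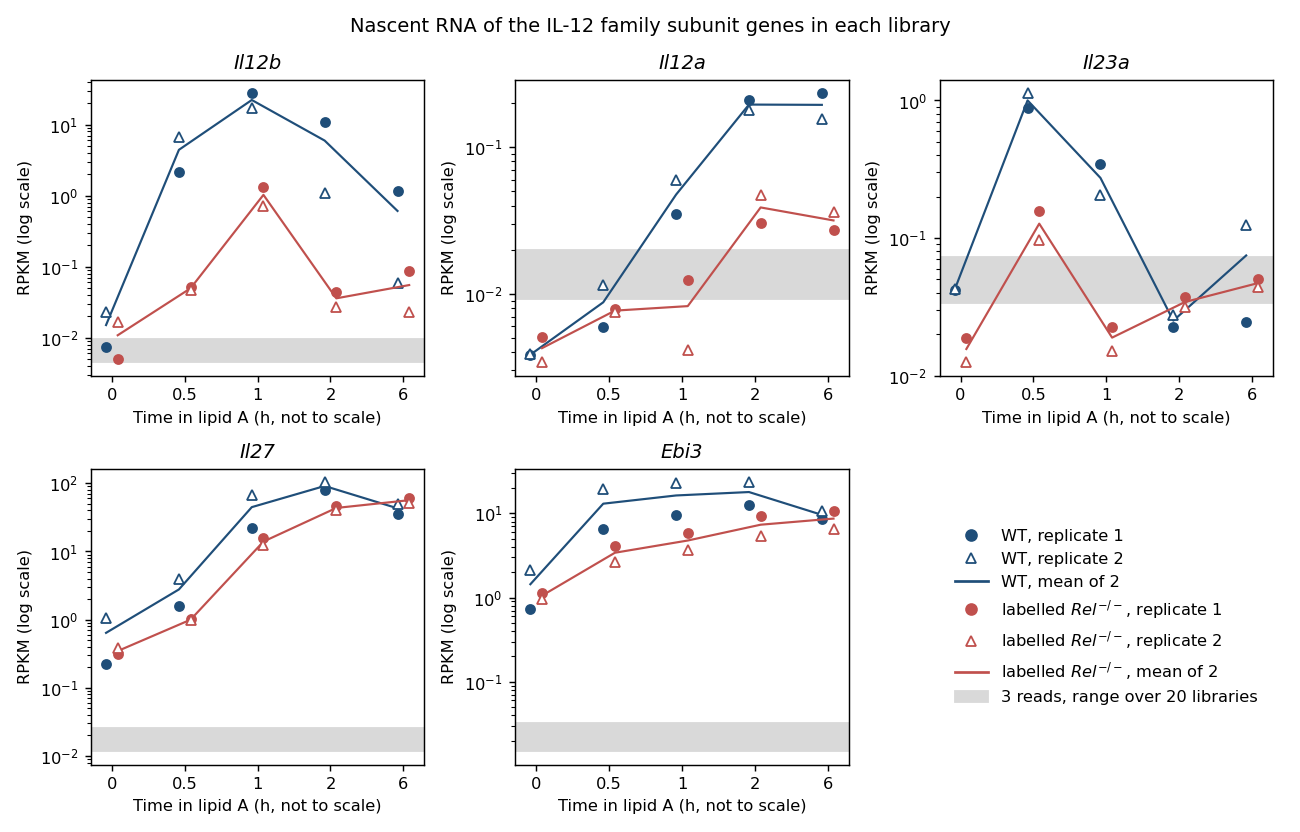
Nascent RNA level (RPKM, log axis) of each subunit gene in each of the 20 libraries against hours of lipid A, with circles for replicate 1, triangles for replicate 2, lines through the mean of 2 replicates, and a grey band for the level that 3 reads give. *Il27* reached the highest mean (91.4 RPKM in WT at 2 h), and *Il12a* stayed at or below 0.233 RPKM in all libraries.

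The time points of lipid A were each compared with the same 0-h libraries of their genotype. In WT, limma called all 3 expressed members higher at 0.5, 1 and 2 h, where 14.1, 16.3 and 22% of the expressed genes were called higher, and *Il27* and *Ebi3* at 6 h, against 15.2%. *Il23a* was called at 0.5 and 1 h, and *Il12a* at 1, 2 and 6 h, where 2.99, 3.38, 4.31 and 3.8% of all genes were called at 0.5, 1, 2 and 6 h. In libraries labelled *Rel*-/-, none of the 3 expressed members was called higher at 0.5 h (13.9% of expressed genes were), although 2 of them had an unadjusted p under 0.05 in limma. All 3 were called at 1 h, against 16.6% of expressed genes, and *Il27* and *Ebi3* were called at 2 and 6 h, against 22.7 and 19.5%. *Il23a* was called at 0.5 h and *Il12a* at 2 and 6 h, where 2.71, 3.17, 4.83 and 5.35% of all genes were called at the 4 time points. The median of all expressed genes in the comparison with 0 h depended on the scaling: at 0.5 h in WT it was −0.33 on the log2 scale with RPKM as deposited and −0.16 after rescaling by the median ratio.

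Between genotypes, the members lay mostly below 0, that is, lower in the libraries labelled *Rel*-/-. In the fit over all 24888 genes, the median log2 difference of the 5 members was −0.25 at 0 h, −1.73 at 0.5 h, −1.63 at 1 h, −1.09 at 2 h and −0.19 at 6 h, whereas the median of all genes lay between −0.01 and 0.03. All 5 members lay below 0 at 0.5 and 1 h, and 4 did at 0, 2 and 6 h. These counts include *Il12a* at 0 and 0.5 h and *Il23a* at 0 and 2 h, when both genotypes were at the floor. At 0 h no member was called and none had an unadjusted p under 0.05 in limma, where 0% of expressed genes and 0.0643% of all genes were called lower. At 0.5 h *Il23a* was called lower and none of the 3 expressed members was (0.134% of expressed and 0.1% of all genes were called lower), with 2 of the 3 at an unadjusted p under 0.05 in limma. The same counts held at 1 h, where 0.537% of expressed and 0.189% of all genes were called lower and all 3 expressed members had an unadjusted p under 0.05 in limma. At 2 h *Il12b* and *Il12a* were called lower, against 0.738% of expressed and 0.169% of all genes, and at 6 h *Il12a* alone was, against 0.0336 and 0.0804%. *Il12b* is among the expressed genes only through WT, where its peak was 22.2 RPKM against 1.03 RPKM in the other libraries. Its call at 2 h was lost without a filter (limma adjusted p = 0.0833) and with the filter on all libraries (0.066). In the mean difference over the 4 time points with lipid A, *Il12b*, *Ebi3*, *Il12a* and *Il23a* were called lower, where 3.02% of expressed and 1.1% of all genes were.

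These calls rest on a spread estimated over all 20 libraries, which treats the time points of a culture series as independent. With each time point fitted from its own 4 libraries, no member was called at any time point. Those fits had 2 residual degrees of freedom, against 10 in the main fit. Their log2 differences were the same, for example −4.73 for *Il12b* and −1.09 for *Il12a* at 2 h. When the stimulated libraries of each replicate series were averaged first, which left 2 values against 2 and was added after seeing the data, no member was called for the mean difference either. The limma adjusted p was then 0.546 for *Il12b*, 0.601 for *Il12a*, 0.749 for *Il23a*, 0.999 for *Il27* and 0.999 for *Ebi3*, with unadjusted values of 0.000549, 0.00115, 0.0128, 0.0946 and 0.0436. The averaged fits also had 2 residual degrees of freedom. Their log2 differences equalled those of the main fit, for example −3.83 for *Il12b* and −1.21 for *Ebi3*. The share of all genes called in them is not given here, so the lost calls do not set the members apart from other genes.

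*Il12b* (NM_001303244; NCBIM37 chromosome 11 from 44213565 to 44228179, 8 exons, plus strand) encodes the p40 chain shared by IL-12 and IL-23. Its level in WT replicates 1 and 2 was 0.00743 and 0.0227 RPKM at 0 h, 2.18 and 6.65 at 0.5 h, 27.5 and 16.9 at 1 h, 10.8 and 1.09 at 2 h, and 1.16 and 0.0594 at 6 h. In the libraries labelled *Rel*-/- it was 0.00498 and 0.0167 RPKM at 0 h, 0.0517 and 0.0476 at 0.5 h, 1.33 and 0.721 at 1 h, 0.0444 and 0.0273 at 2 h, and 0.0868 and 0.0233 at 6 h. WT lay above the libraries labelled *Rel*-/- without overlap at 0.5, 1 and 2 h, and the genotypes overlapped at 0 and 6 h. The replicates of WT drew apart late, with replicate 1 being 9.93-fold above replicate 2 at 2 h and 19.5-fold above it at 6 h. At 6 h the mean in WT was 2.74% of its peak.

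The early difference between genotypes was already wide at 0.5 h, when *Il12b* had 749 and 3549 reads in WT and 27 and 26 reads in the libraries labelled *Rel*-/-. The mean was 89.0-fold below WT (42.3-fold in replicate 1 and 139.6-fold in replicate 2), and limma gave a log2 difference of −4.71 (standard error 1.00, adjusted p = 0.0863), which passed with the replicate number as a block (adjusted p = 0.0454). At 1 h, the peak of both genotypes, the mean was 21.7-fold lower (20.7-fold in replicate 1 and 23.4-fold in replicate 2). The limma log2 difference of −4.32 did not pass there (standard error 1.00, adjusted p = 0.0751), but did with 1 RPKM as pseudocount (0.0101), after quantile normalization (0.0420) and with the replicate block (0.0389). At 2 h the mean was 166-fold lower, 244-fold in replicate 1 and 40.0-fold in replicate 2. That call (limma log2 difference −4.73, adjusted p = 0.0466, lower in both libraries) was lost without WT replicate 1 (0.339) and without replicate 1 (0.324) or replicate 2 (0.377) of the libraries labelled *Rel*-/-. It was also lost without a filter on expression (limma adjusted p = 0.0833), with the filter on all libraries (0.066), with an expression threshold of 1 RPKM (0.0543) and with 1 or 0.01 RPKM as pseudocount (0.160 and 0.05). At 6 h the log2 difference was −1.56 (standard error 1.00, limma adjusted p = 0.907). Over the 4 time points with lipid A the mean log2 difference was −3.83 (standard error 0.50, limma adjusted p = 0.000687). The level was lower in 8 of 8 comparisons of same-numbered libraries, which come from 2 replicate series and are not independent.

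In both genotypes *Il12b* had its highest mean at 1 h and a lower one at 2 h. The mean at 1 h was 1475-fold above 0 h in WT and 94.8-fold above it in the libraries labelled *Rel*-/-. In replicates 1 and 2 it was 3705-fold and 745-fold for WT, and 267-fold and 43.3-fold for the others. These folds start from few reads, 4 and 12 for WT against 2 and 10 for the others. In WT its induction over 0 h was 5.10 on the log2 scale at 0.5 h (limma adjusted p = 0.00200), 7.56 at 1 h (limma adjusted p = 0.000103) and 4.97 at 2 h (limma adjusted p = 0.00169), higher in both libraries each time, and 1.96 at 6 h (limma adjusted p = 0.145, and 0.0469 without WT replicate 2 of 6 h). Libraries labelled *Rel*-/- had a log2 induction of 3.29 at 1 h (standard error 1.00, limma adjusted p = 0.0223), higher in both libraries than in both 0-h libraries. This call was lost with 1 RPKM as pseudocount (limma adjusted p = 0.229) and when any 1 of its 4 libraries, replicates 1 and 2 at 0 and 1 h, was left out (0.0650 to 0.111). The differences between later time points in WT did not pass, with −2.59 on the log2 scale from 1 to 2 h (limma adjusted p = 0.0920) and −3.01 from 2 to 6 h (limma adjusted p = 0.0931). The first passed with 1 RPKM as pseudocount (0.0270), with a block for each time course (0.0437) and without WT replicate 1 of 2 h (0.0183). The second passed with that block (limma adjusted p = 0.0391) and without WT replicate 2 of 2 h (0.0361) or WT replicate 1 of 6 h (0.0389). From 1 to 2 h it fell by 3.0 on the log2 scale in the libraries labelled *Rel*-/- (limma adjusted p = 0.0466), lower in both libraries, where 14.3% of expressed genes were called lower. That call was lost when replicate 1 or 2 at 1 h (0.215 and 0.105) or at 2 h (0.135 and 0.180) was left out, without a filter on expression (0.110), with 1 RPKM as pseudocount (0.304) and after quantile normalization (0.0526).

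*Ebi3* (NM_015766; chromosome 17 from 56092046 to 56096445, 5 exons, plus strand) encodes the receptor-like chain of IL-27 and IL-35. Its level in WT replicates 1 and 2 was 0.740 and 2.14 RPKM at 0 h, 6.47 and 19.6 at 0.5 h, 9.69 and 22.9 at 1 h, 12.5 and 23.4 at 2 h, and 8.55 and 10.6 at 6 h. In the libraries labelled *Rel*-/- it was 1.14 and 0.968 RPKM at 0 h, 4.15 and 2.66 at 0.5 h, 5.81 and 3.71 at 1 h, 9.22 and 5.45 at 2 h, and 10.8 and 6.54 at 6 h. WT lay above the libraries labelled *Rel*-/- without overlap at 0.5, 1 and 2 h, and the genotypes overlapped at 0 and 6 h. WT replicate 2 was above WT replicate 1 at all 5 time points, by 1.25-fold to 3.03-fold, and in the libraries labelled *Rel*-/- replicate 1 was above replicate 2 by 1.18-fold to 1.69-fold.

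*Ebi3* was an early gene in WT, where the 0.5-h mean was 72.7% of the peak, and its 0.5-h mean in the libraries labelled *Rel*-/- was 39.3% of their peak. The WT mean rose 9.04-fold by 0.5 h (limma log2 difference 3.05, adjusted p = 0.00224) and was 12.4-fold above 0 h at 2 h (limma log2 difference 3.65, adjusted p = 0.000467), higher in both libraries each time. At 6 h it was 6.66-fold above 0 h (limma adjusted p = 0.00499, but 0.0564 without WT replicate 1 of 0 h and 0.0501 with only the WT libraries in the fit). Libraries labelled *Rel*-/- had a mean 3.23-fold above 0 h at 0.5 h (limma log2 difference 1.57, adjusted p = 0.0696), 6.95-fold at 2 h (limma log2 difference 2.64, adjusted p = 0.00366) and 8.22-fold at 6 h (limma log2 difference 2.89, adjusted p = 0.00324), higher in both libraries each time. The value at 0.5 h passed with only these libraries in the fit (limma adjusted p = 0.00933), with a block for each time course (0.000868), after scaling by the median ratio (0.0404) and after quantile normalization (0.00597). At 1 h the mean was 4.51-fold above 0 h (limma adjusted p = 0.0206), a call lost when replicate 1 or 2 of 0 h (0.0738 and 0.0959) or of 1 h (0.114 and 0.0514) was left out.

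The *Ebi3* mean of the libraries labelled *Rel*-/- was below WT by 3.82-fold at 0.5 h, 3.43-fold at 1 h, 2.44-fold at 2 h and 1.11-fold at 6 h. The distance was smaller between replicate 1 libraries (1.56-fold at 0.5 h) than between replicate 2 libraries (7.35-fold at 0.5 h). No single time point passed in limma, with log2 differences of −1.73, −1.66, −1.26 and −0.18 (standard error 0.61, adjusted p = 0.436, 0.397, 0.868 and 0.995). The mean difference over the 4 time points was −1.21 (standard error 0.31, limma adjusted p = 0.0347), with a lower level in 7 of 8 same-numbered comparisons, which are not independent within a replicate series. Of the 16 stimulated libraries, leaving out WT replicate 1 of 0.5, 1 or 2 h kept this call (limma adjusted p = 0.0147, 0.0234 and 0.0337), and leaving out any other ended it (0.0515 to 0.0933).

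*Il12a* (NM_008351; chromosome 3 from 68495346 to 68502472, 7 or 8 exons, plus strand) encodes p35, the chain that IL-12 and IL-35 share. It had the lowest peak of the 5 in both genotypes, with at most 48 reads in any library. At 0 h each of the 4 libraries had 1 read, the lowest value in the table, which may stand for none. WT replicates 1 and 2 had 0.00598 and 0.0115 RPKM at 0.5 h, 0.0352 and 0.0599 at 1 h, 0.210 and 0.180 at 2 h, and 0.233 and 0.156 at 6 h. The libraries labelled *Rel*-/- had 0.00785 and 0.00751 RPKM at 0.5 h, 0.0124 and 0.00413 at 1 h, 0.0303 and 0.0473 at 2 h, and 0.0274 and 0.0359 at 6 h. The genotypes overlapped at 0 and 0.5 h, and WT was above without overlap at 1 h (6 and 14 reads against 4 and 1), at 2 h (34 and 48 reads against 6 and 11) and at 6 h (35 and 32 reads against 6 and 9).

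*Il12a* held its level late in WT, with the 6-h mean at 99.5% of the 2-h mean. In WT it was at least 4.12-fold above 0 h at 1 h (limma log2 difference 0.50, adjusted p = 0.00618), and at least 16.9-fold at 2 h (limma log2 difference 1.51, adjusted p = 1.12e-05) and at 6 h (limma log2 difference 1.49, adjusted p = 1.52e-05), higher in both libraries each time. The call at 1 h was lost without WT replicate 2 of 1 h (limma adjusted p = 0.0723), with 1 RPKM as pseudocount (0.0749) and with only the WT libraries in the fit (0.106). From 1 to 2 h it rose by 1.0 on the log2 scale (limma adjusted p = 0.000721), higher in both libraries, where 2.48% of all genes were called higher, and with only the WT libraries in the fit this did not pass (0.108). For libraries labelled *Rel*-/- it was at least 3.04-fold above 0 h at 2 h (limma log2 difference 0.41, adjusted p = 0.0186) and at least 2.48-fold at 6 h (limma log2 difference 0.34, adjusted p = 0.0425), higher in both libraries each time. These calls were lost with 1 RPKM as pseudocount (limma adjusted p = 0.146 and 0.255) and after quantile normalization (0.137 and 0.225), and that at 6 h without a mean trend in the variances (0.0507). The call at 2 h was also lost without replicate 1 (0.0744) or 2 (0.0867) of 0 h or replicate 2 of 2 h (0.158), and the call at 6 h without any 1 of its 4 libraries, replicates 1 and 2 of 0 and 6 h (0.0926 to 0.202).

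In the libraries labelled *Rel*-/- the mean of *Il12a* was below WT by 5.03-fold at 2 h (6.94-fold in replicate 1 and 3.81-fold in replicate 2) and by 6.14-fold at 6 h (8.50-fold and 4.34-fold). The limma log2 difference of −1.09 at 2 h passed (standard error 0.11, adjusted p = 0.00118), as did that of −1.15 at 6 h (standard error 0.11, adjusted p = 0.000361), lower in both libraries each time. These calls held with each library left out in turn (limma adjusted p at most 0.0127 and 0.0041) but not with only the libraries of the time point in the fit (0.818 and 0.361). At 1 h the log2 difference was −0.44 (limma adjusted p = 0.173, and 0.0413 with 0.01 RPKM as pseudocount). Over the 4 time points with lipid A the mean log2 difference was −0.67 (standard error 0.06, limma adjusted p = 8.14e-05), a mean that includes 0.5 h, when both genotypes were at the floor.

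*Il23a* (NM_031252; chromosome 10 from 127733196 to 127735140, 4 exons, minus strand) encodes p19, which pairs with p40 in IL-23. At 1945 bases it is the shortest of the 5 genes, and it had at most 80 reads in any library. In WT replicates 1 and 2 it had 3 and 3 reads at 0 h, 40 and 80 at 0.5 h (0.876 and 1.13 RPKM), 16 and 13 at 1 h (0.343 and 0.204 RPKM), 1 and 2 at 2 h, and 1 and 7 at 6 h. The libraries labelled *Rel*-/- had 1 and 1 reads at 0 h, 11 and 7 at 0.5 h (0.158 and 0.0963 RPKM), 2 and 1 at 1 h, 2 and 2 at 2 h, and 3 and 3 at 6 h. Both genotypes were at the floor at 0 and 2 h, WT lay above without overlap at 0.5 and 1 h, and they overlapped at 6 h.

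*Il23a* had a short pulse within the first hour in WT. Its mean rose at least 23.7-fold by 0.5 h (limma log2 difference 2.94, adjusted p = 4.46e-05) and was still at least 6.48-fold above 0 h at 1 h (limma log2 difference 1.37, adjusted p = 0.00195), higher in both libraries each time. With only the WT libraries in the fit the value at 1 h did not pass (limma adjusted p = 0.0623). It fell by 1.58 on the log2 scale from 0.5 to 1 h (limma adjusted p = 0.00541) and fell by 1.55 from 1 to 2 h (limma adjusted p = 0.00580), lower in both libraries, where 2.3 and 1.51% of all genes were called lower. With only the WT libraries in the fit neither step passed (limma adjusted p = 0.217 and 0.22), nor did the first with 0.01 RPKM as pseudocount (0.0577). Libraries labelled *Rel*-/- had a mean at least 2.72-fold above 0 h at 0.5 h (limma log2 difference 0.96, adjusted p = 0.0151), higher in both libraries. That call was lost without replicate 1 (0.0615) or 2 (0.0822) of 0 h or replicate 1 of 0.5 h (0.114), with 1 RPKM as pseudocount (0.101) and with an expression threshold of 1 RPKM (0.0838).

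In the libraries labelled *Rel*-/- the mean of *Il23a* was below WT by 7.87-fold at 0.5 h (5.54-fold in replicate 1 and 11.7-fold in replicate 2) and by at least 6.90-fold at 1 h. The limma log2 difference of −2.28 at 0.5 h passed (standard error 0.25, adjusted p = 0.0021), as did that of −1.63 at 1 h (standard error 0.25, adjusted p = 0.0187), lower in both libraries each time. The first call held with each library left out (limma adjusted p at most 0.0327), whereas the second was lost without WT replicate 1 (0.0893), replicate 1 (0.137) or replicate 2 (0.157) of the libraries labelled *Rel*-/-, and with an expression threshold of 1 RPKM (0.116). With only the libraries of the time point in the fit neither passed (limma adjusted p = 0.753 and 0.666). The standard error of *Il23a* also pools groups at the floor, where libraries differ little on this scale, and may be too small for 0.5 and 1 h. At 6 h the log2 difference was −0.19 (limma adjusted p = 0.826), and the mean over the 4 time points was −1.0 (standard error 0.13, limma adjusted p = 0.00116), which includes 2 h, when both genotypes were at the floor.

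*Il27* (NM_145636; chromosome 7 from 133732809 to 133738424, 5 exons, minus strand) encodes p28, the helical chain of IL-27. Its level in WT replicates 1 and 2 was 0.227 and 1.05 RPKM at 0 h, 1.58 and 3.97 at 0.5 h, 22.5 and 67.1 at 1 h, 79.4 and 104 at 2 h, and 35.6 and 50.5 at 6 h. In the libraries labelled *Rel*-/- it was 0.311 and 0.381 RPKM at 0 h, 1.01 and 0.986 at 0.5 h, 15.5 and 12.5 at 1 h, 46.1 and 41.0 at 2 h, and 61.0 and 52.2 at 6 h. The genotypes overlapped at 0 h. WT was above without overlap at 0.5, 1 and 2 h, and at 6 h both libraries labelled *Rel*-/- were above both WT libraries.

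The largest step of *Il27* came between 0.5 and 1 h in both genotypes, when it rose by 3.90 on the log2 scale in WT (limma adjusted p = 0.00177) and by 3.67 in the libraries labelled *Rel*-/- (limma adjusted p = 0.00174), higher in both libraries of each. In that step 6.01% of expressed genes were called higher in WT and 9.09% in the libraries labelled *Rel*-/-, and the WT value did not pass with only the WT libraries in the fit (0.0773). Its WT mean was 4.34-fold above 0 h at 0.5 h, 70.0-fold at 1 h, 143-fold at 2 h and 67.2-fold at 6 h. The folds of WT replicate 1 were 6.95, 99.0, 349 and 157 at these times, and those of WT replicate 2 were 3.77, 63.7, 98.3 and 47.9. The limma log2 induction at 0.5 h was 2.09 (adjusted p = 0.0163), a call lost without WT replicate 1 of 0 h (0.165), without WT replicate 2 of 0.5 h (0.154), with 1 RPKM as pseudocount (0.0616) and with only the WT libraries in the fit (0.105). At 2 h it was 7.21 (limma adjusted p = 4.03e-06), higher in both libraries. Libraries labelled *Rel*-/- had a mean 2.88-fold above 0 h at 0.5 h (limma log2 difference 1.30, adjusted p = 0.114), 40.4-fold at 1 h (4.98, adjusted p = 7.05e-05), 126-fold at 2 h (6.61, adjusted p = 5.41e-06) and 163-fold at 6 h (6.99, adjusted p = 5.35e-06). The value at 0.5 h passed with only these libraries in the fit (limma adjusted p = 0.000987), with a block for each time course (0.00663) and after quantile normalization (0.0259).

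The *Il27* mean of the libraries labelled *Rel*-/- was below WT by 2.78-fold at 0.5 h, 3.20-fold at 1 h and 2.1-fold at 2 h, and above WT by 1.32-fold at 6 h. Up to 2 h the differences were smaller in replicate 1 (1.56-fold, 1.45-fold and 1.72-fold at 0.5, 1 and 2 h) than in replicate 2 (4.03-fold, 5.38-fold and 2.53-fold). At 6 h the excess over WT was 0.78 on the log2 scale in replicate 1 and 0.05 in replicate 2. The limma log2 difference at 6 h was 0.085 after quantile normalization. None passed in limma, with log2 differences of −1.25, −1.48, −1.06 and 0.41 at 0.5, 1, 2 and 6 h (standard error 0.59, adjusted p = 0.714, 0.454, 0.932 and 0.995). The mean over the 4 time points was −0.84 (standard error 0.29, limma adjusted p = 0.115, lower in 6 of 8 same-numbered comparisons), which passed with the replicate number as a block (adjusted p = 0.0471), after quantile normalization (0.0352) and without WT replicate 1 of 1 h (0.0432). WT replicate 2 was above WT replicate 1 at every time point, by 1.30-fold to 4.64-fold. The same-numbered comparisons within a replicate series are not independent.

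**Figure D2:**
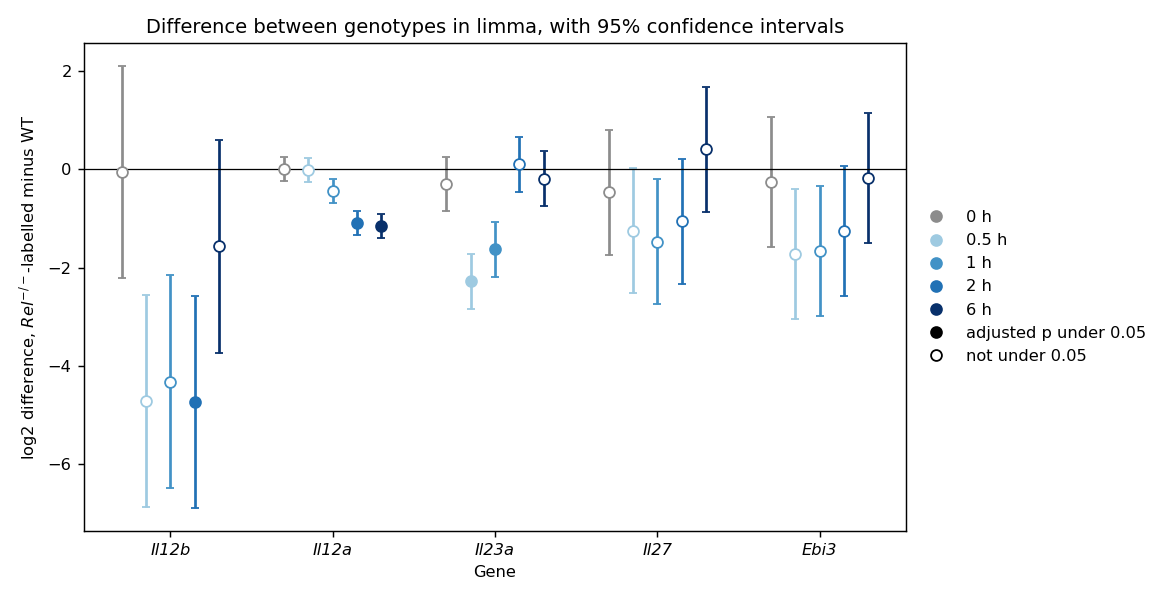
Log2 difference between libraries labelled *Rel*-/- and WT in limma, on log2(RPKM + 0.1), for each subunit gene at 0, 0.5, 1, 2 and 6 h of lipid A, with bars for the 95% confidence interval, filled points for an adjusted p under 0.05 and 2 libraries per group. *Il12b* has the lowest value (−4.73 at 2 h), *Il23a* is lowest at 0.5 h (−2.28), and *Il12a* is lowest at 6 h (−1.15).

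Whether induction itself differed between genotypes was tested by the interaction of genotype and time against 0 h. *Il12a* passed at 2 h, with a difference of −1.10 (standard error 0.16, limma adjusted p = 0.0233), and at 6 h, with −1.16 (standard error 0.16, limma adjusted p = 0.00901). Because *Il12a* had 1 read in each of the 4 libraries at 0 h, these values nearly repeat its genotype differences at 2 and 6 h (−1.09 and −1.15) and do not rest on a measured level at 0 h. The proportions of all genes called in this direction were 0.0241, 0.0683, 0.0723 and 0.0964% at 0.5, 1, 2 and 6 h. Neither *Il12a* value passed with 0.01 RPKM as pseudocount (limma adjusted p = 0.193 and 0.104) or after quantile normalization (0.321 and 0.257). The value at 2 h was also lost without replicate 2 of WT at 0 h (0.0589), replicate 1 of WT at 2 h (0.0786), replicate 1 (0.0677) or 2 (0.0575) of 0 h in the libraries labelled *Rel*-/-, or their replicate 1 of 2 h (0.0809). *Il12b* did not pass, with −4.66, −4.27 and −4.68 at 0.5, 1 and 2 h (standard error 1.42, limma unadjusted p = 0.00585, 0.00997 and 0.00569, adjusted p = 1.00, 0.893 and 0.704), nor did *Il23a*, also at the floor at 0 h in both genotypes, with −1.98 at 0.5 h (standard error 0.36, limma adjusted p = 0.140). *Il27* and *Ebi3* did not pass either, and had no unadjusted p under 0.05 at any time point in limma. Of the expressed genes 0% were called lower at each time point, with 54, 51, 65 and 30 of them at an unadjusted p under 0.05 at 0.5, 1, 2 and 6 h in limma.

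The subunits of one cytokine did not follow the same course. The ratio of *Ebi3* to *Il27* RPKM, the receptor-like over the helical subunit gene of IL-27, was above 1 early and below 1 late in every library. In WT it was 3.26 and 2.03 at 0 h, 4.10 and 4.93 at 0.5 h, 0.431 and 0.342 at 1 h, 0.157 and 0.226 at 2 h, and 0.240 and 0.211 at 6 h. Among libraries labelled *Rel*-/- it was 3.67 and 2.54, 4.11 and 2.70, 0.375 and 0.297, 0.200 and 0.133, and 0.177 and 0.125 at the same time points. The genotypes overlapped in this ratio at 0, 0.5, 1 and 2 h, and at 6 h both WT libraries were above both libraries labelled *Rel*-/-.

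For IL-12, the *Il12b* to *Il12a* ratio in WT was 783 and 282 at 1 h, 51.4 and 6.06 at 2 h, and 4.97 and 0.381 at 6 h. The ratio was lower at each later time point in both WT replicates, and in WT *Il12a* was the more abundant of the pair only in replicate 2 at 6 h. The libraries labelled *Rel*-/- had a ratio of 1.46 and 0.576 at 2 h and of 3.17 and 0.650 at 6 h, lower than in WT without overlap at 2 h and overlapping with it at 6 h. For IL-23, the *Il12b* to *Il23a* ratio in WT was 2.49 and 5.90 at 0.5 h and 80.1 and 83.0 at 1 h. With *Rel*-/- labels it was 0.327 and 0.494 at 0.5 h, below both WT libraries, so *Il12b* exceeded *Il23a* at that time in WT and not in these libraries. At 1 h it was 58.8 and 47.6 in them, with *Il23a* at the floor, and *Il12b* exceeded *Il23a* in both genotypes. These ratios were not tested.

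As a share of the summed RPKM of the 5 genes, *Ebi3* made up 65.6 to 77.1% in every library at 0 h. At 0.5 h *Il12b* made up 19.7 and 21.2% in WT but 0.961 and 1.25% in the libraries labelled *Rel*-/-. At 1 h it made up 45.8 and 15.8% in WT and 5.86 and 4.27% in the libraries labelled *Rel*-/-, with *Il27* at 37.4 and 62.6% and at 68.4 and 73.7%. A share depends on the levels of the other genes, and the *Il27* mean at 1 h was 44.8 RPKM in WT and 14.0 RPKM under the *Rel*-/- label. From 2 h on *Il27* made up the greater part, 77.1 and 80.8% in WT and 83.2 and 88.1% in the libraries labelled *Rel*-/- at 2 h, and 78.1 to 88.7% in all libraries at 6 h.

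Over the 20 libraries, which share time points and replicate series, the correlation of log2(RPKM + 0.1) was highest for *Il27* and *Ebi3* (Pearson r = 0.826), the partners in IL-27. It was 0.321 for *Il12b* and *Il12a*, the partners in IL-12, 0.509 for *Il12b* and *Il23a*, the partners in IL-23, and 0.577 for *Il12a* and *Ebi3*, the partners in IL-35. Genes that are not partners had values above these, 0.685 for *Il12a* and *Il27* and 0.637 for *Il12b* and *Ebi3*. The lowest was that of *Il12a* and *Il23a* (−0.205).

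The 5 expressed genes most like each expressed member over the 20 libraries were found by the same measure. Libraries of both genotypes entered it, so a like difference between genotypes was part of the choice of these genes and is no further likeness. For *Il12b* they were *Clcf1* (r = 0.879), a cytokine of the IL-6 family, *Il4i1* (0.847), an amino acid oxidase, *Slc25a37* (0.823), a mitochondrial iron carrier, *Mir455* (0.817) and *Rcsd1* (0.811). *Clcf1* was highest earlier than *Il12b* in WT, with means of 3.13 RPKM at 0.5 h and 2.81 RPKM at 1 h. Under the *Rel*-/- label it had 0.059 and 0.108 RPKM at these times. *Slc25a37* peaked with *Il12b* at 1 h in WT, at a mean of 53.1 RPKM, and had 17.4 RPKM under the *Rel*-/- label. For *Ebi3* they were *Cd40* (0.945), a costimulatory receptor, the phosphatase gene *Dusp2* (0.923), *Socs3* (0.921), a feedback inhibitor of cytokine signalling, *Mir155* (0.899) and *Gbp5* (0.897). *Cd40* had the early rise of *Ebi3*, with means of 48.8, 53.7 and 58.4 RPKM in WT at 0.5, 1 and 2 h and 11.1, 14.6 and 30.7 RPKM under the *Rel*-/- label. For *Il27* they were *Cd69* (0.946), an activation marker of lymphocytes, *Cst7* (0.944), *Tapbp* (0.943), a chaperone of MHC class I loading, *Mir6978* (0.943) and *Ifi205* (0.943). *Cd69* peaked with *Il27* at 2 h in WT, at 22.6 RPKM, and had 25.7 RPKM at that time in the libraries labelled *Rel*-/-.

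The 5 genes lie on 5 chromosomes, so their neighbours are separate. Of these genes only *Il12b* shares its chromosome with *Rel*, which lies on chromosome 11 from 23641729 to 23670970. *Ebi3* is overlapped for 2252 bases by *Gm16712* on the other strand, whose mean went from 0.196 RPKM at 0 h to 1.5 RPKM at 2 h in WT and from 0.205 to 0.695 RPKM in the libraries labelled *Rel*-/- (r = 0.978 with *Ebi3* over 20 libraries). The sources do not state whether reads were counted by strand, so reads of *Ebi3* and *Gm16712* cannot be told apart where they overlap. *Yju2*, 2164 bases from *Ebi3*, had 0.579 RPKM at 0 h and 1.64 RPKM at 2 h in WT, with 0.684 and 1.91 RPKM under the *Rel*-/- label (r = 0.848). *Zfp119b* on the other side had r = 0.093. The interval counted for *Il27* ends 202 bases from *Apobr*, a lipoprotein receptor gene on the other strand. The annotated *Il27* transcript reaches 133732524, within *Apobr*, which ends at 133732606. Reads of both cannot be told apart there. *Apobr* had a WT mean of 6.57 RPKM at 0 h and 14.6 RPKM at 1 h, with 4.51 and 6.75 RPKM under the *Rel*-/- label (mean log2 difference over the 4 time points −0.72, limma adjusted p = 0.163, r = 0.411 with *Il27*). *Nupr1*, 28335 bases away on the other side, had 1.91 RPKM at 0 h and 25.4 RPKM at 1 h in WT, with 1.56 and 13.6 RPKM under the *Rel*-/- label (mean log2 difference −0.31, limma adjusted p = 0.485, r = 0.690). *Il23a* lies 3286 bases from *Stat2*, which encodes a transcription factor of interferon signalling. *Stat2* was lowest at 0.5 h in WT, at 4.20 RPKM, when *Il23a* peaked, and highest at 6 h, at 33.3 RPKM (r = −0.482). *Pan2* on the other side had r = 0.147. *Il12b* lies 39893 bases from *Ublcp1*, at 0.175 to 0.497 RPKM in the WT means and 0.0943 to 0.472 RPKM under the *Rel*-/- label (r = −0.150). The *Ublcp1* mean was lower under that label at every time point, for example 0.0943 against 0.201 RPKM at 1 h. *Ublcp1* was below the expression filter, and no test of it is given. The nearest gene on the other side of *Il12b* is 563573 bases away. *Il12a* lies 64941 bases from *Iqschfp* and 62944 bases from *Gm35584*.

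Other genes of the IL-12 family pathway were grouped as receptors, kinases and STATs, transcription factors of macrophage activation, and cytokines of the same setting. Of 6 receptor chain genes, *Il6st* and *Il6ra* were expressed, and neither differed between genotypes by the limma threshold at any time point or in the mean over the 4 time points. *Il12rb1*, which encodes the receptor chain that binds p40, had 0.121 RPKM at 0 h and 1.11 RPKM at 6 h in WT, with 0.0693 and 1.08 RPKM under the *Rel*-/- label. *Il23r*, its partner for IL-23, had 0.257 RPKM at 6 h in WT and 0.603 RPKM under the *Rel*-/- label. Of 6 kinase and STAT genes 5 were expressed (*Stat4*, the main STAT downstream of IL-12, was not), and none was called between genotypes. Of the 2980 expressed genes, limma called 0 higher and 0 lower at 0 h, and 0 and 4 at 0.5 h. The numbers were 13 and 16 at 1 h, 3 and 22 at 2 h, and 0 and 1 at 6 h. In the mean over the 4 time points they were 101 and 90. The absence of calls therefore does not set the receptor, kinase and STAT genes apart from other expressed genes. *Jak2*, the kinase on the IL-12 and IL-23 receptors, had 0.973 RPKM at 0 h and 19.7 RPKM at 1 h in WT, with 0.788 and 21.6 RPKM under the *Rel*-/- label.

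All 20 transcription factor genes were expressed. At 1 h against 0 h limma called 13 of them higher and 1 lower in WT, where 16.3% of the 2980 expressed genes were called higher and 594 genes lower. In the libraries labelled *Rel*-/- it called 14 higher and 3 lower, where 16.6% were called higher and 517 genes lower. Between genotypes 1 of 20 was called. The gene was *Nfkbid*, a nuclear IκB gene, in the mean over the 4 time points (log2 difference −1.06, limma adjusted p = 0.0154), where 90 of 2980 expressed genes were called lower and 101 higher. The median log2 difference in that mean was 0.04 over the 20 genes and 0.09 over all expressed genes. *Irf1* and *Irf8*, factors known to act on *Il12b* and *Il12a*, had means at 1 h of 55.5 and 21.6 RPKM in WT, with 39.8 and 12.6 RPKM under the *Rel*-/- label. At 2 h they had 76.1 and 40.0 RPKM in WT, with 70.0 and 68.0 RPKM under the *Rel*-/- label. The limma log2 difference of *Irf8* was 0.52 at 1 h, opposite to the order of its means, and 1.01 at 2 h (adjusted p = 0.977 and 0.996), and in the mean over the 4 time points it was −0.42 for *Irf1* and 0.40 for *Irf8* (limma adjusted p = 0.485 and 0.716). Of 10 other cytokine genes 7 were expressed and none was called between genotypes, with a median log2 difference of 0.52 in the mean over the 4 time points. At 6 h *Il6* had 5.24 RPKM in WT and 17.2 RPKM under the *Rel*-/- label (limma adjusted p = 0.476). *Tnf* had 67.4 and 27.5 RPKM at that time (limma adjusted p = 0.855). *Il10*, an inhibitor of *Il12b* expression, had 4.63, 5.82, 3.57 and 4.08 RPKM at 0.5, 1, 2 and 6 h in WT. Under the *Rel*-/- label it had 1.58, 6.71, 7.33 and 11.5 RPKM (limma adjusted p = 0.995 at 6 h). *Ifng*, *Il17a* and *Il22*, which T cells and NK cells make in response to IL-12 and IL-23, stayed at or below 0.0114 RPKM in every group mean.

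Promoter windows were matched by symbol for 3 of the 5 members, *Il12b*, *Il12a* and *Ebi3* (not *Il23a* and *Il27*). They are shown because *Il12b* had the widest genotype difference and its promoter holds the NF-κB sites that the study examined. The windows are those of RefSeq on GRCm38.p6, 250 bases before to 50 bases after a gene's start, and the 250 bases before the start are printed. Both strands were searched for the κB consensus and for the half-site GTTTT, which reads as AAAAC from the opposite strand. They were also searched for cores of 8 letters from the *Il12b* motifs of the study, κB1 (GGAACTTC, or GAAGTTCC from the other strand), κB2 (AATTCCCC, or GGGGAATT) and κB3 (AATGTTTT, or AAAACATT), and every match is in capitals. Among 32851 windows of 300 bases, 8.46% held the κB consensus, 44.7% the half-site, 1.25% the κB1 core, 0.846% the κB2 core and 1.64% the κB3 core. In *Il12b* (chr11:44399813-44400062, plus strand) the κB1, κB2 and κB3 cores begin at −141, −129 and −118 from the start, and the half-site occurs at −115, within the κB3 core, and at −103. The first window of *Il12a* (chr3:68690394-68690643, plus strand) holds no match and the second (chr3:68691174-68691423, plus strand) holds the half-site at −145. *Ebi3* (chr17:55952373-55952622, plus strand) holds the κB consensus, read on both strands, at −44, and a second match at 15 bases after the start. A match is a description of letters and no binding was measured in these libraries.
*Il12b*: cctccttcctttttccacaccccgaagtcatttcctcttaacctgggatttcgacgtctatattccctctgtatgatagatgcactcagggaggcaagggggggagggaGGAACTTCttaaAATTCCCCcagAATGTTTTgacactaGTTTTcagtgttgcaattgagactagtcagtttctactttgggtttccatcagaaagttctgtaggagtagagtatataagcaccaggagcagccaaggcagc
*Il12a*, first window: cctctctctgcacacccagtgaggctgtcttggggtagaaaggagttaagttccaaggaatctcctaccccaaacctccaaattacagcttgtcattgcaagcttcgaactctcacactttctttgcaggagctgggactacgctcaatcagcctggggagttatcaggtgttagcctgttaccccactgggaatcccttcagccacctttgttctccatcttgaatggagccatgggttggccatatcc
*Il12a*, second window: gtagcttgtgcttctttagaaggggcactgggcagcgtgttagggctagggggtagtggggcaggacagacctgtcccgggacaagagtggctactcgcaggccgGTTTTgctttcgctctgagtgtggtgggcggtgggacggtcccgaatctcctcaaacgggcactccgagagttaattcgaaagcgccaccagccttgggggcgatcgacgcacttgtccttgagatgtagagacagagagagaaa
*Ebi3*: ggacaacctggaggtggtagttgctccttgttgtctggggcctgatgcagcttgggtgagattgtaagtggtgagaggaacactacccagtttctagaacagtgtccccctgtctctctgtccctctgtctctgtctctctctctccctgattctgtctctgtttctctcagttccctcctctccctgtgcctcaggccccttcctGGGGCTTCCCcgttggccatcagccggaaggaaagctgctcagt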

How the data were processed

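The authors aligned stranded TruSeq reads to the mm9 (NCBIM37) mouse genome with HISAT2, sorted them with SAMtools, counted reads over each gene with SeqMonk and scaled the counts by sequencing depth and gene length. The authors deposited these RPKM values, which cover 24888 genes in each of 20 libraries. Tool names are from the methods and the submitters' processing notes, and whether counting used strand is not stated in the sources used here. Groups and replicate numbers were read from the sample labels.

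RPKM multiplied by gene length and by the depth of the library, which was estimated from the low values, gave whole reads, within 0.1 read, for values of up to 300 reads. Depth was 21094000 to 45439000 reads per library, and a value of 3 reads or fewer was taken as the floor. No value was below 1 read, and 4258 genes had exactly 1 read in all 20 libraries, so a value of 1 read may stand for none.

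Genotypes, time points and their interaction were compared by limma (version 3.58.1, R 4.3.3). The fit used log2(RPKM + 0.1), moderated variances with a mean trend, 10 group means over 20 libraries and Benjamini-Hochberg adjustment. *Il12b*, *Il27* and *Ebi3* were tested over the 2980 genes with a mean WT RPKM above 3 at any time point, and *Il12a* and *Il23a*, which this filter removes, over all genes. Other values were computed with Python 3.11.15, pandas 2.3.3, numpy 2.4.6 and scipy 1.17.1, and figures were drawn with matplotlib 3.10.9. The fit was tested on simulated data. There each library was drawn independently for expressed genes, without replicate series or a floor of reads, so that test does not cover either.

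Libraries with the same replicate number deviated from their group means together between genotypes, with correlations across 2980 genes of 0.136, 0.472, 0.337, 0.42 and 0.192 at 0, 0.5, 1, 2 and 6 h, and the legend of the study says that genotypes were examined in parallel. Values with the replicate number as a block are therefore given where they change a call.

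The members, gene lists and tests were chosen with earlier results of these data known. The genes named are the 5 members, genes of the pathway lists (receptors, kinases and STATs, transcription factors, cytokines), neighbouring genes, *Rel*, marker genes, and for each expressed member the 5 expressed genes with the highest correlation.

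The alternatives were pseudocounts of 1 and 0.01 RPKM, an expression threshold of 1 RPKM, a filter on all libraries or none, quantile normalization, scaling by the median ratio, no mean trend, the replicate number or the time course as a block, a fit on only the libraries of a time point or genotype, and each library left out, where a lone library is assumed to vary like the other groups. The settings combined with no filter for *Il12a* and *Il23a*, the averaged time courses and the comparison of the step from 2 to 6 h between genotypes were added after seeing the data. Count models were not run on RPKM.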

Additional observations from a re-analysis of the deposited data

Results flagged for a closer look

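The change of *Il12a* from 0 h differed between genotypes in limma, by −1.10 on the log2 scale at 2 h and by −1.16 at 6 h (libraries labelled *Rel*-/- minus WT, Benjamini-Hochberg adjusted p = 0.0233 and 0.00901). All 4 libraries at 0 h had 1 read, so these values nearly repeat the genotype differences at 2 and 6 h (−1.09 and −1.15). At 2 h the WT libraries had 34 and 48 reads and those labelled *Rel*-/- had 6 and 11, so few reads carry the difference, and what part counting error has in it was not tested.

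*Il27* was lower than WT in both libraries labelled *Rel*-/- at 0.5, 1 and 2 h and higher in both at 6 h. At 6 h the excess was 0.78 on the log2 scale in replicate 1 and 0.05 in replicate 2. The step from 2 to 6 h differed between genotypes by 1.47 on the log2 scale (standard error 0.83), which did not pass in limma (unadjusted p = 0.101, Benjamini-Hochberg adjusted p = 1). With a block for each time course the limma adjusted p was 0.651. In the same comparison *Il12b* differed by 3.17 (standard error 1.42, limma unadjusted p = 0.0433) and did not pass after adjustment. The comparison of this step was added after seeing the data.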

How the results depend on the processing

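For the results that answer a comparison, 178 values under settings other than a left-out library kept their direction and their side of the limma threshold (Benjamini-Hochberg adjusted p of 0.05), 13 lost the call, 2 gained it, 16 counts moved by over 1.5 times and none changed sign. With 1 library left out, 133 kept both, 28 lost the call, 1 gained it, 6 counts moved by over 1.5 times and none changed sign. For other named values of single genes, 572 kept both, 28 lost the call, 15 gained it and 1 changed sign, and with 1 library left out these were 223, 22, 4 and 11. Why a result changed was not tested, except that fits on fewer libraries have fewer degrees of freedom. Depth limits *Il12a* and *Il23a*, which had 1 to 48 and 1 to 80 reads, and 2 libraries per group limit every member.

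The count of members lower in the libraries labelled *Rel*-/- was 1 at 0.5 h, 1 at 1 h, 2 at 2 h, 1 at 6 h and 4 in the mean over the 4 time points with lipid A. With only the libraries of the time point in the fit it was 0 at 0.5, 1, 2 and 6 h, and with averaged time courses it was 0 for the mean. Both kinds of fit had 2 residual degrees of freedom and left the log2 differences of the members unchanged. The share of all genes called in them is not given here. With the replicate block the count of members was 2 at 0.5 h and 2 at 1 h. At 1 h it was 2 with a pseudocount of 1, 2 with 0.01, 2 after quantile normalization and 0 with a threshold of 1 RPKM. At 2 h it was 1 with no filter, 1 with a pseudocount of 1, 1 with 0.01, 1 with a threshold of 1 RPKM and 1 with the filter on all libraries. With 1 library left out it was 0 to 1 at 1 h (0 without WT replicate 1 or either library labelled *Rel*-/-) and 1 to 2 at 2 h (1 without WT replicate 1 or either library labelled *Rel*-/-).

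With averaged time courses the limma adjusted p of the mean difference was 0.546 for *Il12b*, 0.601 for *Il12a*, 0.749 for *Il23a* and 0.999 for *Ebi3*. For *Ebi3* it was 0.0147 to 0.0933 with 1 library left out. For *Il27*, not called, it was 0.0352 after quantile normalization, 0.0471 with the replicate block and 0.0432 to 0.202 with 1 library left out.

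For induction in the libraries labelled *Rel*-/-, the limma adjusted p of *Il12b* at 1 h was 0.229 with a pseudocount of 1 and 0.0650 to 0.111 with 1 library left out. That of *Il12a* at 2 h was 0.146 with a pseudocount of 1, 0.137 after quantile normalization and 0.0292 to 0.158 with 1 library left out. That of *Il23a* at 0.5 h was 0.101 with a pseudocount of 1, 0.0838 with a threshold of 1 RPKM and 0.0325 to 0.114 with 1 library left out. The interaction of *Il12a* had an adjusted p of 0.193 at 2 h and 0.104 at 6 h with a pseudocount of 0.01, of 0.321 and 0.257 after quantile normalization, and of 0.0284 to 0.0809 at 2 h with 1 library left out.

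Differences that were not called changed sign in 1 setting or when 1 library was left out. The genotype difference of *Il12a* at 0 h did so after quantile normalization (adjusted p = 0.999). With 1 library left out, the adjusted p of the genotype difference was 0.992 to 1 for *Il12b* at 0 h, 0.991 to 0.995 for *Il12a* at 0 h, 0.985 to 1 for *Il12a* at 0.5 h, 0.676 to 0.963 for *Il23a* at 6 h, 0.828 to 1 for *Il27* at 0 h, 0.925 to 1 for *Ebi3* at 0 h and 0.996 to 1 for *Ebi3* at 6 h. For induction it was 0.631 to 0.994 for *Il12a* and 0.869 to 0.998 for *Il23a* at 1 h in the libraries labelled *Rel*-/-, and 0.0943 to 0.633 for *Il23a* at 6 h in WT.

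The replicate block also called *Il12b* between genotypes at 0.5 h (adjusted p = 0.0454) and 1 h (0.0389). It called 4 further steps between time points, *Il12a* from 0.5 to 1 h in WT (0.0490), *Il12b* (0.0410) and *Il23a* (0.0488) from 0.5 to 1 h, and *Il27* from 1 to 2 h (0.0275) in the libraries labelled *Rel*-/-, and beside the mean difference of *Il27* it changed no other call of a member.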
